A study of Rattus norvegicus with 40 samples.

Results

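Plasma microRNAs (miRNAs) of injured rats that did not develop epilepsy were compared with those of sham-operated rats on day 2 (D2) after the operation. The comparison took the D2 libraries of all rats labelled TBI− or sham, 13 of the 40 small RNA libraries of the series, 9 TBI− and 4 sham, 1 library per rat. TBI− rats were adult male Sprague-Dawley rats with a severe lateral fluid-percussion injury, a pressure pulse onto the exposed dura, in which no unprovoked seizure was seen during 1 month of continuous video-EEG in the sixth month. Sham-operated rats had the same operation, craniotomy included, without the impact, so they also carried a surgical wound to skull and scalp. The paper proposes that the craniotomy mildly injures the brain as well. It measured 7 neuron-enriched miRNAs on D2 by PCR in a larger cohort that shared some rats with this series. All but 1 of these were higher in sham-operated than in unoperated (naïve) rats. Sham plasma is therefore not taken here as a baseline without brain injury. The 7 TBI+ rats, which had the same injury and did develop epilepsy, entered the statistical model but not the comparison. Blood was drawn from the tail vein into EDTA tubes, and the plasma of each rat and day was a pool of aliquots of that rat.

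A miRNA is a short RNA that guides an Argonaute protein to messenger RNAs matching its seed, bases 2 to 8 from the 5′ end, and lowers their translation and stability. In plasma, miRNAs circulate inside vesicles or bound to protein, and a large share normally comes from blood cells and vessel walls. Neurons hold a set of miRNAs that few other cells express, miR-124 foremost, and these are followed as markers of brain damage because injured tissue can release them into blood. A plasma level does not tell whether more cells released a miRNA or each cell released more of it.

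The mature sequences of the miRNAs on which the results turn follow, with the seed in capitals, from RefSeq (assembly GRCr8, which held 31 of the 35 differentially expressed miRNAs). The first 5 rose and are known from neurons. MiR-132-3p and miR-212-3p come from a shared transcript on chromosome 10, and they shared the seed AACAGUC. MiR-129-1-3p is as long as the first 19 bases of miR-129-2-3p and was identical to them, so the reads of these 3p strands were not told apart and they count as 1 observation made in 2 rows.
miR-212-3p: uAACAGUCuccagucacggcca
miR-132-3p: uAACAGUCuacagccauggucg
miR-129-5p: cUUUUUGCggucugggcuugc
miR-129-1-3p: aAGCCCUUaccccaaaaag
miR-129-2-3p: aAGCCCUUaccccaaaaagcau
The next 4 rose as well and belong to the imprinted Dlk1-Dio3 region on chromosome 6, in which many miRNAs are processed from the maternally expressed transcripts around Meg3 and Mirg.
miR-127-3p: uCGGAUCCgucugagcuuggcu
miR-136-3p: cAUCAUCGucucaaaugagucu
miR-410-3p: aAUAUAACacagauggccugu
miR-668: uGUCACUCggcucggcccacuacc
The last 6 fell. Both strands of the miR-140 hairpin are shown because both fell.
miR-140-3p: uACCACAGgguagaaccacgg
miR-140-5p: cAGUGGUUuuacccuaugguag
miR-149-5p: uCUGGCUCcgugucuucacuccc
let-7d-3p: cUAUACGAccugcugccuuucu
miR-1249: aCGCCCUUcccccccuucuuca
miR-222-3p: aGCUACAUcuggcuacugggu

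Reads were counted on 752 miRNAs, of which 549 had a read in the 13 libraries and 565 in any of the 20 D2 libraries. Summed over miRNAs, the libraries held between 594332 and 1331905 in sham-operated and between 404542 and 2181856 in TBI− rats, without a difference beyond the spread among rats (p = 0.389, two-sided exact permutation over the 715 choices of 4 of 13 rats). Levels are given as CPM, reads per 1000000 reads of the library. A miRNA without reads could have been present at up to 3 reads, which was 2.25 to 5.05 CPM in sham-operated and 1.37 to 7.42 CPM in TBI− rats (counting error only, as PCR copies are not independent molecules). Red cell lysis, measured as the log2 ratio of miR-451-5p to miR-23a-3p reads, averaged -0.525 ± 0.656 for the 4 sham-operated and -0.275 ± 0.743 for the 9 TBI− rats (SD; p = 0.590, two-sided exact permutation).

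The numbers in the library titles form 3 runs with gaps between them, here runs 1 to 3 in rising order, and the labels do not say what the numbers stand for. On D2 all 4 sham libraries were in run 1, TBI− libraries 1 to 5 in run 2 and TBI− libraries 6 to 9 in run 3, so no TBI− library shared a run with a sham library. TBI+ libraries 1 to 4 were in run 1 and 5 to 7 in run 2, and through them a model with both group and run could be fitted. Results are therefore given without and with the run as a term.

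On D2, 35 of 565 miRNAs (6.19%) were differentially expressed between TBI− and sham-operated rats (edgeR quasi-likelihood test over all 20 D2 libraries, Benjamini-Hochberg adjusted p under 0.05). Of these, 18 were upregulated (3.19%) and 17 downregulated (3.01%). DESeq2 called 37 (6.55%), 34 of the 35 among them. Without adjustment 90 miRNAs had a p under 0.05, the 35 included. The upregulated miRNAs were neuronal miRNAs, led by miR-124-3p, and miRNAs of the Dlk1-Dio3 region, with 1 exception, miR-139-5p. The downregulated miRNAs were led by miR-140-3p and included miRNAs known from cartilage, from the miR-17-92 family of clusters and from the miR-322 cluster. The median log2 fold change over all 565 was 0.0555.

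**Figure D1:**
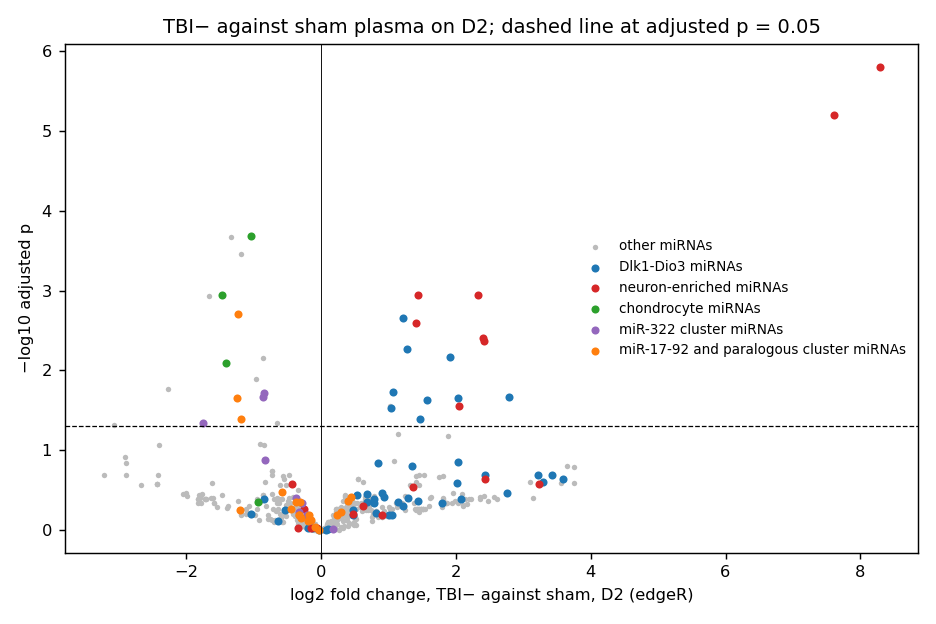
Log2 fold change (horizontal) and -log10 adjusted p (vertical) of each miRNA tested between TBI− and sham plasma on D2, coloured by list. Neuron-enriched and Dlk1-Dio3 miRNAs above the dashed line lie on the right, and chondrocyte, miR-17-92 and miR-322 cluster miRNAs above it on the left. The fold changes of the 2 rightmost points, miR-124-3p and miR-124-5p, depend on the prior count because their sham libraries were at 0.

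The calls differed strongly in how far they held when the run of library numbers was a term. With it, all 35 miRNAs kept their direction, 24 had an unadjusted p under 0.05 (16 upregulated, 8 downregulated), and 2 remained called, miR-124-3p and miR-124-5p (0.354% of 565). The standard errors grew by a median factor of 1.69, while the estimated log2 fold changes were a median 1.00 times those without the term for the upregulated and 0.869 times for the downregulated miRNAs. In a fit over the libraries of both days with the run as a term, chosen after seeing the data, the same 2 miRNAs were called and 24 of the 35 again had an unadjusted p under 0.05. The kept directions and both counts of 24 are a description only, because the 35 had been called in the same D2 libraries. The other 33 were no longer called with the term, so for them these libraries did not separate the injury from the run of library numbers at the threshold used here.

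**Figure D2:**
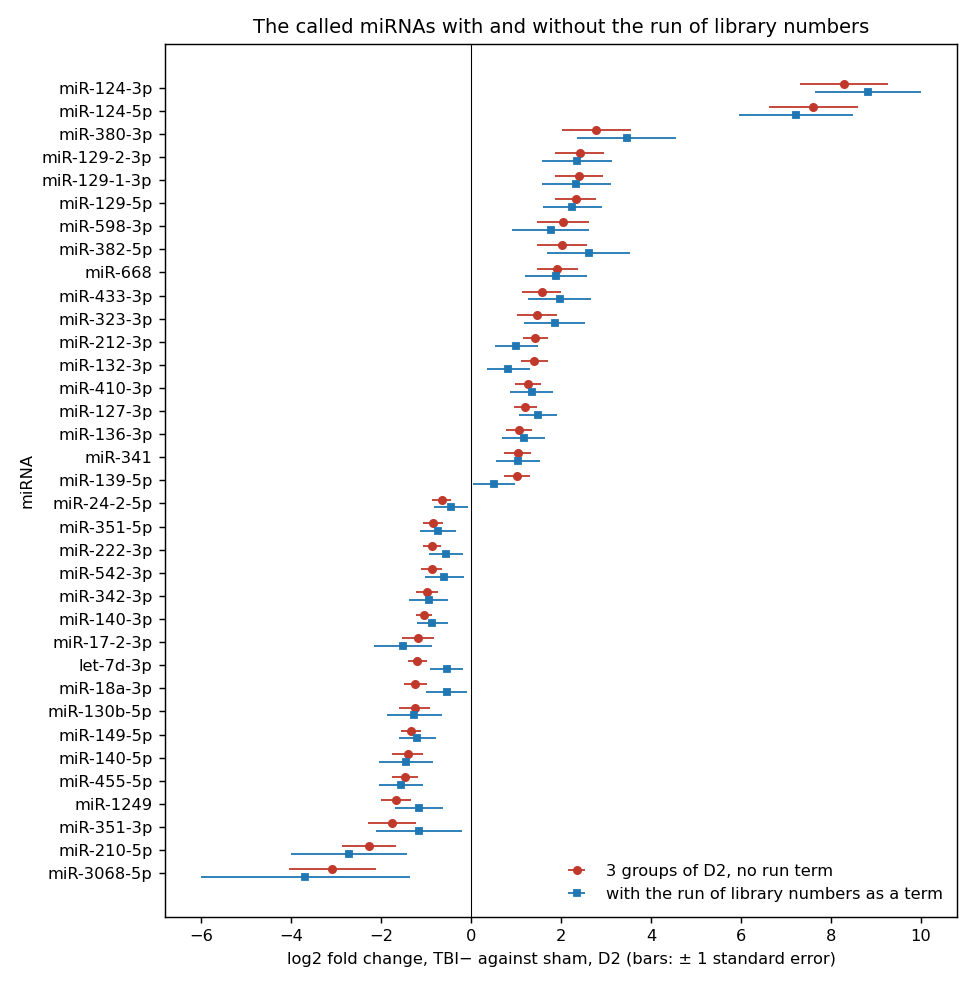
Log2 fold change of the 35 called miRNAs between TBI− and sham-operated rats on D2 (horizontal), from the model without (circles) and with (squares) the run of library numbers, with bars of 1 standard error. Every pair of points lies on the same side of 0, the bars are wider with the term, and let-7d-3p, miR-18a-3p and miR-139-5p move most towards 0 relative to their size.

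Sham libraries and TBI+ libraries 1 to 4 lay in the same run. Of the 18 upregulated miRNAs, 15 were higher in all 4 TBI+ libraries of that run than in all 4 sham libraries (25 of all 565, 4.42%), and of the 17 downregulated miRNAs 5 were lower (19 of 565, 3.36%). These counts are a description only, because the 35 miRNAs were called against the same 4 sham libraries in a model that held these TBI+ libraries, so they are no test of the run. MiR-140-3p ranged over 5110.5 to 7208 CPM in these 4 TBI+ libraries and miR-149-5p over 187 to 333 CPM, both below the sham ranges given further on.

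Both strands of miR-124, which holds neurons in their fate by repressing non-neuronal transcripts, had no read in any sham library and reads in all 9 TBI− libraries. They were the only miRNAs of the table with this pattern, and none had reads in all 4 sham and no TBI− library. MiR-124-3p ranged from 11.1 to 50.9 CPM with a median of 29.7 in TBI− rats and at least 12 reads per library. Set against 3 reads per sham library, its mean of 30.5 ± 13.9 CPM (SD, n = 9) was 8.67-fold higher (edgeR, adjusted p = 1.57e-06). MiR-124-5p ranged from 6.34 to 39.2 CPM with a median of 17.9 and was 5.49-fold higher on the same basis (edgeR, adjusted p = 6.27e-06). All counts of both strands were multiples of 3, and how reads that match several gene copies were counted is not given in the sources used here. The independent reads behind these values may therefore be fewer, and both folds are not firm lower limits. After division of all such counts by their common factor both strands were still called. With the run as a term their adjusted p values were 4.5e-06 and 0.0005 (edgeR). Per the paper, PCR in its larger cohort found similar miR-124-3p levels in sham-operated and naïve rats.

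MiR-132-3p and miR-212-3p, made from a shared transcript that neurons switch on with activity through CREB, rose together. Sham rats 1 to 4 had 20.2, 17.6, 16.4 and 18.02 CPM of miR-212-3p, and TBI− rats ranged from 31.7 to 61.8 CPM with a median of 44.3. All TBI− rats lay above all sham rats, and the log2 fold change was 1.43 ± 0.28 (edgeR, SE; adjusted p = 0.00112). For miR-132-3p the sham values were 33.7, 16.8, 47.7 and 24.8 CPM, and TBI− rats ranged from 44.5 to 95.3 CPM with a median of 75.2. Here 7 of 9 TBI− rats were above the highest sham rat, and the log2 fold change was 1.41 ± 0.30 (edgeR, SE; adjusted p = 0.00257). With the run as a term the estimates were 1.01 ± 0.48 and 0.83 ± 0.48 (edgeR, SE; adjusted p = 0.516 and 0.652). The other strand of each hairpin had a mean of under 1 read per library and gave no comparison. In the paper's larger cohort, miR-132-3p and miR-212-3p were also higher in sham-operated than in naïve rats.

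The miR-129 strands, enriched in neurons and known to repress the potassium channel Kv1.1, also rose. MiR-129-5p was at 0, 33.6, 11.9 and 10.5 CPM in sham rats 1 to 4 and ranged from 34.9 to 95.3 CPM with a median of 74.0 in TBI− rats. The highest sham rat was just under the lowest TBI− rat, and sham rat 1 had no read. The log2 fold change was 2.32 ± 0.45 (edgeR, SE; adjusted p = 0.00112). The shared 3p reads, counted as miR-129-1-3p, were at 0, 6.11, 2.98 and 9.76 CPM in sham rats, and TBI− rats ranged from 5.37 to 43.1 CPM with a median of 28.3 (log2 fold change 2.40 ± 0.53, edgeR adjusted p = 0.004). TBI− rat 2, at the low end of that range, was the only TBI− rat inside the sham range. The counts of miR-129-5p, which is encoded at 2 loci, were mostly even numbers, 31 of the 33 counts above 0. Per the paper, RT-qPCR in other plasma aliquots of the same rats found very low miR-129-5p levels. There the difference between TBI rats of both outcomes and sham-operated rats was not significant.

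MiR-598-3p, another neuron-enriched miRNA, was at 3.37, 9.17, 2.98 and 3.00 CPM in sham rats and ranged from 7.69 to 40.3 CPM with a median of 13.7 in TBI− rats (log2 fold change 2.04 ± 0.58, edgeR adjusted p = 0.0281). Sham rat 2 lay inside the TBI− range. Its counts too were mostly even, 35 of 37 above 0.

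Of the 20 neuron-enriched miRNAs listed, 19 were tested, 8 rose, where 3.19% of all 565 did, and none fell. The median log2 fold change of the list was 1.41 beside 0.0555 over all 565. The 8 hold both strands of miR-124 and all rows of miR-129, whose 3p rows count as 1 observation, so they are not 8 separate miRNA genes. The list was drawn up with earlier results of these data known. The rise did not extend to its most abundant members. MiR-128-3p, a miRNA of forebrain neurons that blood cells also express, averaged 6305 ± 1586 CPM in sham-operated (SD, n = 4) and 5518 ± 1386 CPM in TBI− rats (SD, n = 9), a log2 difference of -0.06 ± 0.22 (edgeR, adjusted p = 0.956). MiR-328a-3p averaged 2274 ± 521 CPM and 1541 ± 293 CPM (log2 difference -0.43 ± 0.20, edgeR adjusted p = 0.266). MiR-138-5p averaged 1088 ± 61.9 CPM and 838 ± 249.6 CPM (log2 difference -0.25 ± 0.22, edgeR adjusted p = 0.552). As these members were far more abundant than the rest, the summed level of the list did not separate the groups, 7241 to 12153 CPM in sham-operated and 5856 to 11022 CPM in TBI− rats. MiR-9a-5p, a defining miRNA of neural progenitors, was at 0 in all 4 sham and in 8 of 9 TBI− libraries. Such a 0 need not mean absence. Per the paper, the other strand, miR-9a-3p, was missed by this sequencing but found by RT-qPCR in plasma of the same rats, higher after TBI than after sham operation.

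**Figure D3:**
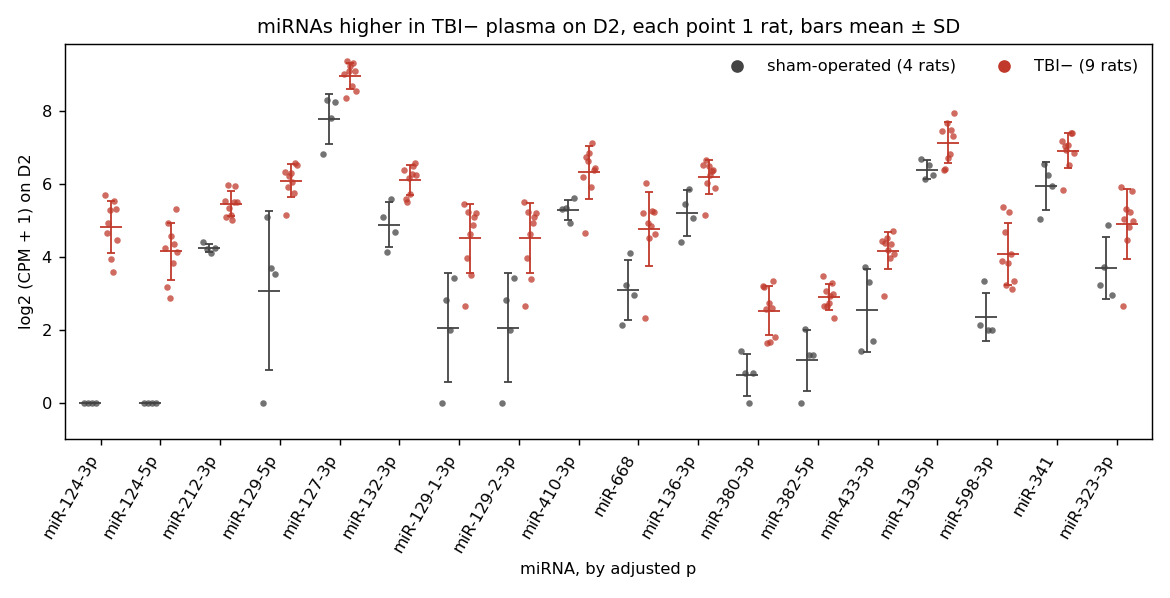
Level of each upregulated miRNA on D2 as log2 (CPM + 1), with 1 point per rat, sham-operated rats in grey and TBI− rats in red, and bars for mean ± SD. Both miR-124 strands lie at 0 in the 4 sham rats, and 1 TBI− rat, rat 2, is the low red point for miR-410-3p, miR-668 and miR-323-3p.

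Of 61 miRNAs listed for the Dlk1-Dio3 region, 60 were in the table and 49 tested. Here 9 of 49 rose, where 3.19% of all 565 did, and none fell. A log2 fold change above 0 was found for 39 and below 0 for 7, beside 304 and 245 of all 565, and the median was 1.03. Only 14 of the 49 had a mean of 10 or more reads per library. The called miRNAs lay at 2 places on chromosome 6 (GRCr8). Within chr6:134327421-134347891 were miR-433-3p, miR-127-3p, miR-136-3p and miR-341, several of them antisense to the retrotransposon-derived gene Rtl1. Within chr6:134546281-134579828 were miR-380-3p, miR-323-3p, miR-382-5p, miR-668 and miR-410-3p. Of the tested miRNAs inside or within 50000 bases of these intervals, 13 of 18 and 40 of 47 had a log2 fold change above 0, with medians of 0.965 and 1.06, the called ones included. The summed level of the list was 368 to 806 CPM in sham-operated and 616 to 1557 CPM in TBI− rats.

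MiR-127-3p was the most abundant of them. Sham rats 1 to 4 had 113, 316, 225 and 304 CPM, and TBI− rats ranged from 329 to 667 CPM with a median of 550.3. The groups did not overlap, although the lowest TBI− rat was close to the highest sham rat, and the log2 fold change was 1.21 ± 0.25 (edgeR, SE; adjusted p = 0.00221). For miR-410-3p the sham values were 38.7, 39.7, 29.8 and 48.1 CPM, while TBI− rats ranged from 24.2 to 138.7 CPM with a median of 85.8 (log2 fold change 1.27 ± 0.29, edgeR adjusted p = 0.00546). TBI− rat 2 was below all sham rats, and the other 8 were above them. MiR-668 was at 3.37, 8.41, 16.4 and 6.76 CPM in sham rats and ranged from 4.03 to 64.3 CPM with a median of 29.6 in TBI− rats (log2 fold change 1.92 ± 0.45, edgeR adjusted p = 0.00677). The same rat was within the sham range here. MiR-136-3p was at 20.2, 42.8, 58.1 and 33.0 CPM in sham rats, and TBI− rats ranged from 34.9 to 101.3 CPM with a median of 81.3 (log2 fold change 1.07 ± 0.28, edgeR adjusted p = 0.0186). In the paper's larger cohort, miR-136-3p was also higher in sham-operated than in naïve rats.

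The other 5 called members had lower levels or wider spreads. MiR-380-3p was at 1.68, 0.764, 0 and 0.751 CPM in sham rats, at most 1 read per library, and ranged from 2.11 to 9.22 CPM with a median of 5.08 in TBI− rats (edgeR, adjusted p = 0.0214). MiR-382-5p was at 0, 3.06, 1.49 and 1.502 CPM in sham rats, at most 4 reads per library, and ranged from 4.04 to 10.1 CPM with a median of 6.64 in TBI− rats (edgeR, adjusted p = 0.022). All TBI− rats were above all sham rats for both, and no fold is given because the sham libraries were at or about the floor of 3 reads. MiR-433-3p, miR-341 and miR-323-3p had log2 fold changes of 1.57 ± 0.44, 1.03 ± 0.30 and 1.47 ± 0.44 (edgeR, adjusted p = 0.0233, 0.0299 and 0.0412). These 3 were no longer called without sham rat 1, which had the lowest miR-433-3p and miR-341 of the group. In the paper's larger cohort, miR-323-3p was also higher in sham-operated than in naïve rats. Among the members not called, miR-381-3p averaged 53.5 ± 23.6 CPM in sham-operated and 73.4 ± 23.9 CPM in TBI− rats (log2 difference 0.53 ± 0.28, edgeR adjusted p = 0.369). MiR-300-3p averaged 38.5 ± 22.04 CPM and 66.5 ± 22.5 CPM (log2 difference 0.84 ± 0.31, edgeR adjusted p = 0.147).

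MiR-139-5p, made from an intron of the phosphodiesterase gene Pde2a, was the upregulated miRNA outside both lists. It averaged 84.5 ± 15.1 CPM in sham-operated (SD, n = 4) and 149.9 ± 56.8 CPM in TBI− rats (SD, n = 9), a log2 fold change of 1.01 ± 0.29 (edgeR, SE; adjusted p = 0.0281). With the run as a term the estimate was 0.51 ± 0.46 (edgeR, SE), the smallest of the upregulated miRNAs.

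The upregulated miRNAs were unevenly spread over the rats. TBI− rats 1 and 7 were above the highest sham rat in all 18, TBI− rat 2 in only 8, and the remaining 6 rats in 15 to 17. Summed over the 18, the level was 379 to 688 CPM in sham rats, 756 CPM in TBI− rat 2 and 1090 to 1648 CPM in the other TBI− rats. TBI− rat 2 was not low in everything neuronal, as its miR-598-3p was the highest of all 13 rats. Among the downregulated miRNAs it was below the lowest sham rat in 15 of 17, and the range over the 9 rats was 13 to 16. Without TBI− rat 2 the test called 36 miRNAs, 34 of the 35 among them.

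MiR-140-3p had the lowest adjusted p of the downregulated miRNAs. The miR-140 hairpin lies in an intron of Wwp2, is switched on by SOX9 in cartilage, and gives both strands. Sham rats 1 to 4 had 16739.8, 16048, 13063 and 9894 CPM, and TBI− rats ranged from 5152 to 6883 CPM with a median of 5899. No TBI− rat reached the lowest sham rat, and the mean fell from 13936 ± 3132 CPM (SD, n = 4) to 6045 ± 629.8 CPM (SD, n = 9), a log2 fold change of -1.05 ± 0.17 (edgeR, SE; adjusted p = 0.000209). MiR-140-5p was at 123, 84.1, 99.8 and 45.8 CPM in sham rats and ranged from 12.4 to 53.6 CPM with a median of 25.4 in TBI− rats (log2 fold change -1.41 ± 0.34, edgeR adjusted p = 0.00809). TBI− rats 1 and 9 lay within the sham range. MiR-455-5p, from an intron of the cartilage collagen gene Col27a1, was at 409, 423, 267 and 235 CPM in sham rats and ranged from 63.2 to 156.3 CPM with a median of 105 in TBI− rats, below all of them (log2 fold change -1.47 ± 0.29, edgeR adjusted p = 0.00112). The fourth member of the cartilage list, miR-455-3p, averaged 9.41 ± 6.51 CPM and 3.59 ± 3.63 CPM (log2 difference -0.93 ± 0.62, edgeR adjusted p = 0.456). Thus 3 of 4 fell, where 3.01% of all 565 did, with a median log2 fold change of -1.23. Both strands of the miR-140 hairpin are counted among these 3.

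MiR-149-5p, from an intron of the glypican gene Gpc1, was at 735, 883, 654 and 413 CPM in sham rats 1 to 4. TBI− rats ranged from 143 to 346 CPM with a median of 256, below every sham rat. The mean fell from 671 ± 197 CPM to 242 ± 65.1 CPM, a log2 fold change of -1.34 ± 0.23 (edgeR, SE; adjusted p = 0.000211). With the run as a term miR-140-3p, then miR-149-5p, then miR-455-5p had estimates of -0.86 ± 0.34, -1.20 ± 0.41 and -1.55 ± 0.49 (edgeR, SE; adjusted p = 0.357, 0.248 and 0.177). The paper measured these miRNAs by droplet digital PCR in D2 plasma of another cohort, with few rats per group. There miR-140-3p and miR-149-5p did not differ between naïve, sham and TBI rats, with a trend to lower levels after either operation. MiR-455-5p was lower in TBI than in naïve rats but did not differ between TBI and sham rats.

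**Figure D4:**
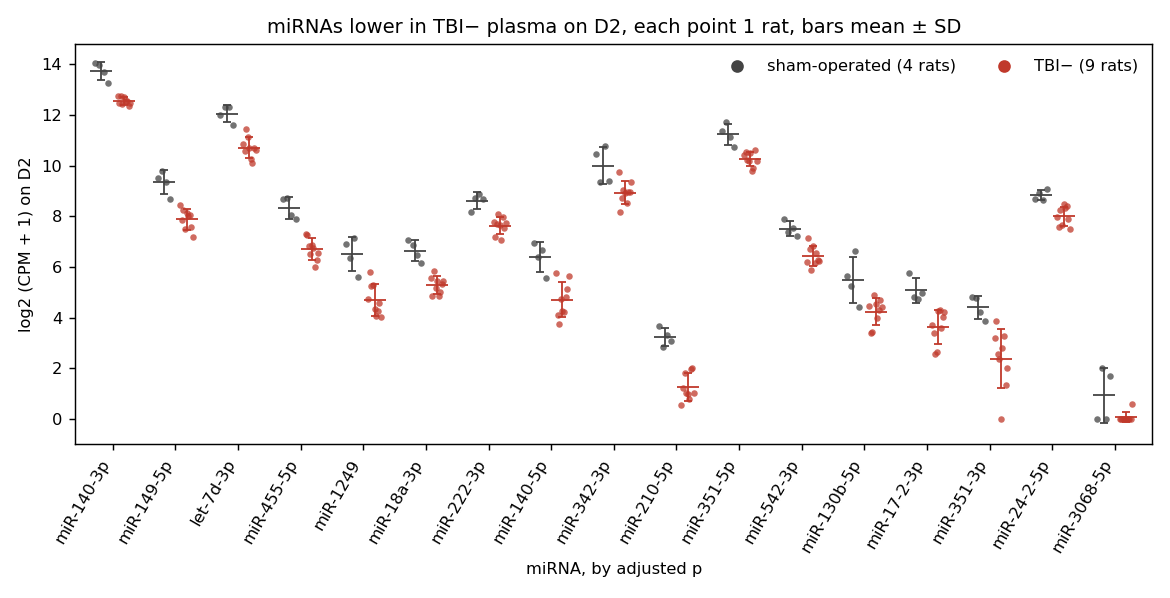
Level of each downregulated miRNA on D2 as log2 (CPM + 1), with 1 point per rat, sham-operated rats in grey and TBI− rats in red, and bars for mean ± SD. The red points of miR-140-3p, miR-149-5p, let-7d-3p and miR-455-5p all lie below the grey ones, and miR-3068-5p lies near 0 in both groups.

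Let-7d-3p, miR-1249 and miR-18a-3p also fell, and they had a called difference between runs of library numbers in the fit over both days given below. What lay behind that difference was not tested. Let-7d-3p is the minor strand of a let-7 hairpin. Its other strand, let-7d-5p, had no read in the 13 libraries, which need not mean absence. Sham rats had 4107, 5019, 5018 and 3092 CPM, and TBI− rats ranged from 1083 to 2759 CPM with a median of 1645 (log2 fold change -1.19 ± 0.21, edgeR adjusted p = 0.00035). By run, D2 means were 4309 ± 918 CPM in sham (run 1), 2972 ± 305 CPM in TBI+ of run 1, 2032 ± 267 CPM in TBI+ of run 2, 2001 ± 496 CPM in TBI− of run 2 and 1382 ± 271 CPM in TBI− of run 3 (SD). Run 1 was thus above run 2 among TBI+ rats, and run 2 above run 3 among TBI− rats.

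In the fit over both days, 5 of 581 miRNAs (0.861%) differed between runs 3 and 1, and let-7d-3p, miR-1249 and miR-18a-3p were among them. The other 2 were let-7f-5p and miR-128-3p. Run 3 was below run 1 by a log2 difference of -0.93 ± 0.23 for let-7d-3p, -1.43 ± 0.34 for miR-1249 and -1.25 ± 0.30 for miR-18a-3p (edgeR, SE; adjusted p = 0.026 for each). With the run as a term on D2, the TBI− estimate for let-7d-3p was -0.54 ± 0.36 and that for miR-18a-3p -0.54 ± 0.46 (edgeR, SE; adjusted p = 0.821 and 0.948). In the fit over both days none of the other 32 called miRNAs had a called difference between runs, and none differed between runs 2 and 1.

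MiR-1249 was at 117.8, 80.2, 139.98 and 48.1 CPM in sham rats and ranged from 15.1 to 55.0 CPM with a median of 23.1 in TBI− rats (log2 fold change -1.67 ± 0.33, edgeR adjusted p = 0.00117). Its TBI− means were 34.99 ± 13.7 CPM in run 2 and 17.96 ± 3.66 CPM in run 3 (SD). MiR-18a-3p, the minor strand of a miR-17-92 hairpin, was at 132.9, 116, 87.9 and 70.6 CPM in sham rats and ranged from 28.0 to 56.9 CPM with a median of 39.2 in TBI− rats (log2 fold change -1.24 ± 0.26, edgeR adjusted p = 0.00195). Its TBI− means on D2 were 41.9 ± 11.0 CPM in run 2 and 35.2 ± 6.70 CPM in run 3 (SD), with overlapping values.

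Of 20 tested miRNAs listed for the miR-17-92 cluster and its paralogues, which promote cell growth and are abundant in blood cells, 3 fell and none rose. The list median was -0.31, with 16 of 20 below 0, beside 3.01% of all 565 called lower and 245 of 565 below 0. The 3 were miR-18a-3p, miR-17-2-3p and miR-130b-5p, all minor strands, and the last of these was on the list although it comes from a separate cluster with miR-301b. MiR-17-2-3p was at 53.8, 26.7, 25.3 and 30.8 CPM in sham rats and ranged from 4.94 to 18.4 CPM with a median of 11.9 in TBI− rats (log2 fold change -1.18 ± 0.36, edgeR adjusted p = 0.0412). MiR-130b-5p ranged from 9.40 to 28.5 CPM with a median of 20.2 in TBI− rats, of which 5 of 9 were below the lowest sham rat (log2 fold change -1.25 ± 0.34, edgeR adjusted p = 0.022). The guide strands of the clusters did not pass the test. MiR-92a-3p, the most abundant, averaged 134259 ± 36206 CPM in sham-operated and 96729 ± 19609 CPM in TBI− rats (log2 difference -0.31 ± 0.21, edgeR adjusted p = 0.456).

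Of the 9 miRNAs of the miR-322 cluster on chromosome X, which slows the cell cycle in muscle and other tissues, 3 fell, none rose and the median was -0.38. Of all 565 miRNAs 3.01% fell, and their median was 0.0555. Called were miR-351-5p and miR-351-3p, both strands of the same hairpin, and miR-542-3p, within chrX:137722185-137725181 (GRCr8). MiR-351-5p fell from 2493 ± 699 CPM (SD, n = 4) to 1241 ± 239 CPM (SD, n = 9) and miR-542-3p from 183 ± 38.7 CPM to 88.3 ± 25.5 CPM. All TBI− rats were below all sham rats for both, with log2 fold changes of -0.85 ± 0.23 and -0.87 ± 0.24 (edgeR, SE; adjusted p = 0.0194 and 0.0214). MiR-351-3p, at 0 to 18 reads in TBI− libraries, had a log2 fold change of -1.75 ± 0.54 (edgeR, adjusted p = 0.0454), and it was no longer called in 21 of 27 alternative settings. MiR-351-5p shares its seed with miR-125a-5p and miR-125b-5p, which are more widely expressed. Their log2 differences were 0.24 ± 0.21 and 0.02 ± 0.25 (edgeR, SE; adjusted p = 0.574 and 0.996).

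MiR-222-3p, abundant in vessel walls and blood cells and a repressor of the receptor Kit, was at 283, 426, 475 and 414 CPM in sham rats and ranged from 134.3 to 269 CPM with a median of 208 in TBI− rats. The groups did not overlap (log2 fold change -0.86 ± 0.21, edgeR adjusted p = 0.00696). Its partner miR-221-3p, with the same seed and from the same transcript, averaged 710.4 ± 144.5 CPM in sham-operated and 812 ± 222 CPM in TBI− rats, a log2 difference of 0.32 ± 0.21 (edgeR, SE; adjusted p = 0.441). MiR-342-3p, from an intron of Evl and abundant in lymphocytes, was at 1407, 657, 1726 and 671 CPM in sham rats and ranged from 290.0 to 857 CPM with a median of 489 in TBI− rats (log2 fold change -0.97 ± 0.25, edgeR adjusted p = 0.0128). MiR-150-5p, another lymphocyte miRNA, averaged 29909 ± 11847 CPM and 14992 ± 6734 CPM (log2 difference -0.85 ± 0.29, edgeR adjusted p = 0.0862). MiR-222-3p was the only call among 7 platelet and endothelial miRNAs tested and miR-342-3p the only one among 6 lymphocyte miRNAs tested, where 3.01% of all 565 fell. Neither list had a miRNA that rose.

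Of the remaining downregulated miRNAs, miR-210-5p, a strand of a hairpin that hypoxia switches on, was at 11.8, 6.11, 8.93 and 7.51 CPM in sham rats and ranged from 0.458 to 3.07 CPM with a median of 1.06 in TBI− rats, 1 to 4 reads per library. All TBI− rats were below all sham rats (log2 fold change -2.27 ± 0.60, edgeR adjusted p = 0.0174). The other strand, miR-210-3p, had no read in the 13 libraries, which need not mean absence. MiR-24-2-5p had the smallest change, from 456 ± 60.9 CPM to 264 ± 67.0 CPM, with a log2 fold change of -0.65 ± 0.20 (edgeR, adjusted p = 0.0454). MiR-3068-5p had at most 4 reads in a sham library and 1 read in 1 TBI− library (edgeR, adjusted p = 0.0492), and no fold is given because both groups were at or about the detection limit.

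For 31 of the 35 miRNAs the table held the other strand of the hairpin, matched by name, and 23 of these strands had reads in the 13 libraries. Of these, 20 differed in the direction of the called strand, while of all 565 miRNAs 304 were above 0 and 245 below. The 20 include 8 that were themselves called (6.19% of all 565 were), and these belong to the 35. They are both strands of miR-124, miR-140 and miR-351, each counted from either side, and miR-129-5p, counted beside each of its 3p rows. These 8 are therefore no separate observations. Among 8 strands with a mean of 10 or more reads that were not called, 6 had the same direction. The strands went opposite ways for miR-24, and so did miR-17-2-3p and miR-17-5p. MiR-17-2-3p lies on chromosome X, and whether miR-17-5p, matched to it by name, comes from the same hairpin was not checked. MiR-17-5p averaged 337 ± 75.4 CPM in sham-operated and 369 ± 133.3 CPM in TBI− rats (log2 difference 0.29 ± 0.28, edgeR adjusted p = 0.599), and miR-24-3p averaged 832 ± 27.3 and 847 ± 227 CPM (log2 difference 0.18 ± 0.21, edgeR adjusted p = 0.663). MiR-127-5p, the minor strand of miR-127, averaged 5.00 ± 4.45 and 13.1 ± 5.92 CPM (log2 difference 1.35 ± 0.51, edgeR adjusted p = 0.157).

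The CPM ranges of the groups did not overlap for 21 of 565 miRNAs (3.72%), 7 higher (1.24%) and 14 lower (2.48%) in TBI− rats, of which 19 were among the 35 called. The 2 others were miR-423-3p and miR-532-5p, named here after their values were seen. Without sham rat 1 the test called 23 miRNAs, all of them among the 35, and the 12 lost were miR-139-5p, miR-598-3p, miR-433-3p, miR-136-3p, miR-341, miR-323-3p, miR-382-5p, miR-210-5p, miR-342-3p, miR-17-2-3p, miR-351-3p and miR-542-3p.

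The rats of the TBI+ group, with the same injury, allow the values to be set side by side, with the reserve that both comparisons share the sham libraries. Between TBI+ and sham-operated rats 18 miRNAs were called (3.19% of 565), 13 higher and 5 lower, and 16 of the 35 miRNAs were among them, 12 upregulated and 4 downregulated. DESeq2 called 34 in this comparison, and edgeR called 11 without sham rat 1. MiR-124-3p averaged 32.0 ± 19.8 CPM in TBI+ rats (SD, n = 7), miR-129-5p 90.9 ± 40.9 CPM, miR-149-5p 254 ± 68.8 CPM and miR-140-3p 5782 ± 1109 CPM. Let-7d-3p averaged 2569 ± 568.2 CPM in TBI+ rats (log2 fold change against sham -0.69, edgeR adjusted p = 0.0902), and miR-1249 52.0 ± 15.6 CPM (-0.80, edgeR adjusted p = 0.209). The direct test between TBI− and TBI+ rats called 0 of 565 miRNAs with edgeR and 0 with DESeq2, and 38 had an unadjusted p under 0.05 with edgeR. Among the 35, the lowest adjusted p was 0.428, 4 had an unadjusted p under 0.05, and the largest log2 difference, for miR-1249, was 0.863 in size. No miRNA was therefore called as particular to rats without later epilepsy.

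The same 13 rats were sampled again on D9, a week later. Then 26 of 541 miRNAs were called between TBI− and sham-operated rats (4.81%), 7 higher (1.29%) and 19 lower (3.51%). Of the 35, let-7d-3p and miR-222-3p were among the higher and miR-3068-5p was among the lower. These calls rested on few rats, as without sham rat 2 none of the 541 was called (edgeR, 63 at an unadjusted p under 0.05) and without sham rat 1 there were 17. In a fit with the run as a term, chosen after seeing the data, 3 were called (0.555%) and none of the 35 was among them. The sham libraries of D9 were shallow, with totals of 140636 to 358202 reads, and a floor of 3 reads corresponded to 8.38 to 21.3 CPM there. They also lay in run 3, whereas those of D2 lay in run 1, and the TBI− libraries of D9 lay in runs 1 and 2, so the order of the runs was turned round between the days. The median D9 log2 fold change was 0.178 over the 18 upregulated miRNAs, 10 of them above 0, and -0.512 over the 17 downregulated ones, 11 of them below 0.

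MiR-124-3p had reads in 2 of 9 TBI− and none of 4 sham libraries on D9, with a highest value of 6.11 CPM, below the floor of each D9 sham library. MiR-129-5p averaged 8.50 ± 10.1 CPM in sham-operated and 3.85 ± 4.12 CPM in TBI− rats on D9 (SD), where it had been 14.0 ± 14.1 CPM and 70.4 ± 19.1 CPM on D2. In the model over both days with the rat as a block, its log2 difference between TBI− and sham changed by -3.69 ± 0.97 (edgeR, SE; adjusted p = 0.0122). That of miR-127-3p changed by -1.61 ± 0.50 (edgeR, SE; adjusted p = 0.0439). Neither change was called without sham rat 1 (edgeR, adjusted p = 0.232 for miR-129-5p and 0.57 for miR-127-3p) or without sham rat 3 (0.571 and 0.366). Their estimates with the run as a term were -2.52 ± 1.28 and -0.58 ± 0.77 (SE), and neither was called. MiR-140-3p kept its direction, at 12788 ± 5234 CPM and 6604 ± 2059 CPM on D9 (log2 fold change -0.87, edgeR adjusted p = 0.0599).

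Let-7d-3p and miR-222-3p were called on both days in opposite directions. Let-7d-3p averaged 1441 ± 207 CPM in sham-operated and 3110.3 ± 1234 CPM in TBI− rats on D9 (log2 fold change 1.20, edgeR adjusted p = 0.0341), and its difference changed by 2.30 ± 0.44 (edgeR, SE; adjusted p = 6.93e-05). Its D9 means were 3854 ± 919 CPM in TBI− rats of run 1 and 2180.1 ± 925 CPM in those of run 2 (SD), beside 1441 ± 207 CPM in sham rats of run 3. TBI+ rats of D9 had 2347 ± 307 CPM in run 1 and 1482 ± 240.5 CPM in run 3. In each group and day with libraries in 2 runs, the run with the lower numbers had the higher let-7d-3p mean. MiR-222-3p averaged 121 ± 62.9 CPM and 302 ± 96.4 CPM on D9, and its difference changed by 2.33 ± 0.50 (edgeR, SE; adjusted p = 0.000534). With the run as a term beside the rat, in a fit chosen after seeing the data, where 20 of 581 (3.44%) had been called without it, 7 of the 35 among them, no change between the days was called (20 at an unadjusted p under 0.05, edgeR), and the estimates were 1.33 ± 0.67 for let-7d-3p and 0.89 ± 0.76 for miR-222-3p (SE). For these 2 miRNAs the day and the run cannot be told apart.

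**Figure D5:**
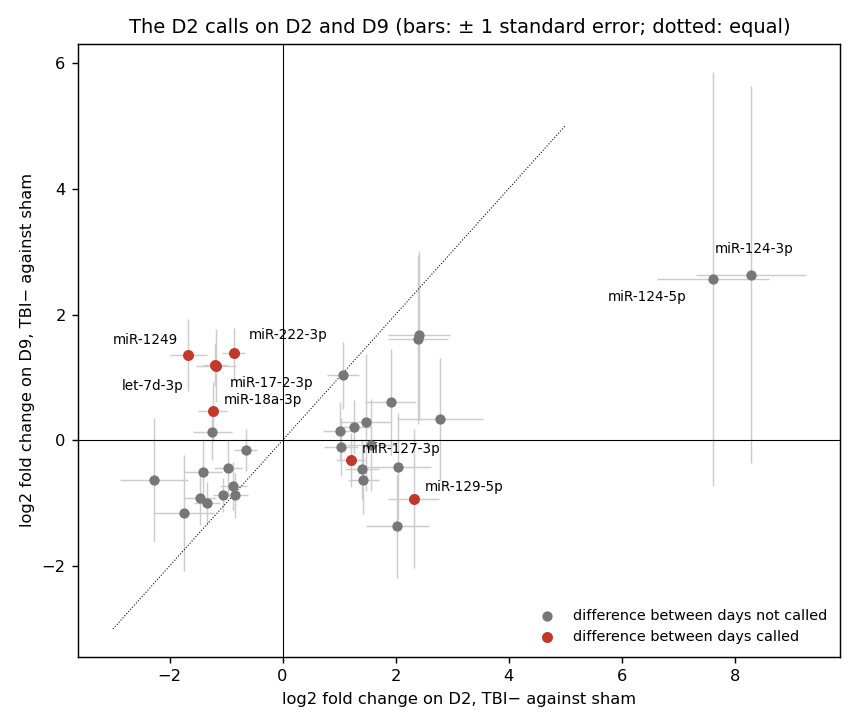
Log2 fold change between TBI− and sham-operated rats on D2 (horizontal) and D9 (vertical) for 34 of the 35 miRNAs, with bars of 1 standard error, a dotted line of equal values and the 7 miRNAs with a called difference between the days in red. MiR-3068-5p is left out because its D9 value rests on 1 sham rat, and the miR-124 strands lie far right with wide D9 bars. Let-7d-3p, miR-222-3p, miR-1249, miR-18a-3p and miR-17-2-3p lie below 0 on D2 and above 0 on D9.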

How the data were processed

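Small RNA of rat plasma had been sequenced on D2 and D9 in 40 libraries. Per the study's methods, the authors checked reads with FastQC (version 11.8 as written there), trimmed them with Trimmomatic 0.36, merged both flow cells, aligned them to the rat genome (Rno6) with Bowtie2 and deposited raw counts per mature miRBase miRNA from featureCounts. The counts are whole numbers, used as deposited. The members and lists were chosen with earlier results of these data known. Levels are CPM, counts scaled to 1000000 reads per library, and SD is over rats. Tests were edgeR 4.0.16 quasi-likelihood tests (R 4.3.3, TMM scaling) over all 20 libraries of a day, adjusted by Benjamini-Hochberg over all miRNAs with a read, and the standard error was the log2 fold change divided by the root of F. DESeq2 1.42.0, other scalings, filters, covariates and omitted rats served as alternatives. All called miRNAs were named. Of those not called, at most 4 per list with the highest mean CPM, other strands and seed partners were named. For the change between days the rat was a block, as the same animal gave both libraries. In simulated D2 counts with 200 of 565 miRNAs changed 4-fold, 133 were called, 123 rightly, and 88 of 94 with a mean of 10 or more reads were recovered. The simulation held no effect of the run of library numbers. Most called changes were smaller than 4-fold, with median log2 fold changes of 1.74 upward and -1.24 downward, so it does not give the recovery of such changes. The plots used Python 3.11.15 and matplotlib 3.10.9.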

Additional observations from a re-analysis of the deposited data

Results flagged for a closer look

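For 7 of the 35 miRNAs the TBI− minus sham log2 difference itself changed between D2 and D9 (edgeR, rat as a block, adjusted p under 0.05, against 20 of 581, 3.44%, over all miRNAs). The change was 2.30 ± 0.44 for let-7d-3p, 2.33 ± 0.50 for miR-222-3p, 2.88 ± 0.62 for miR-1249, 2.58 ± 0.74 for miR-17-2-3p, 1.70 ± 0.54 for miR-18a-3p, -3.69 ± 0.97 for miR-129-5p and -1.61 ± 0.50 for miR-127-3p (log2, SE). Let-7d-3p, miR-222-3p and miR-1249 stayed called when any 1 sham rat was left out. MiR-129-5p and miR-127-3p lost the call without sham rat 1 or 3 (adjusted p = 0.232 and 0.571 for miR-129-5p, 0.57 and 0.366 for miR-127-3p, edgeR), miR-17-2-3p likewise (0.134 and 0.0987), and miR-18a-3p without sham rat 1 or 4 (0.217 and 0.231). With the run of library numbers as a term in a fit chosen after seeing the data, none of the 7 was called.

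A single rat stood apart from its group in 2 of 72 groups of values examined, where chance gives about 1 in 20. Sham rat 2 had 9.17 CPM of miR-598-3p on D2, while the other sham rats had 2.98 to 3.37 CPM. TBI− rat 9 had the only read of miR-3068-5p in its group, 0.504 CPM.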

How the results depend on the processing

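All 35 miRNAs, or those still tested, kept their direction in each of the 27 alternatives. Of the count of 35 calls, 2 remained with the run of library numbers as a term, 2 with that term over 40 libraries (added after seeing the data), 22 with the TBI− libraries of run 2 alone and 29 with those of run 3 alone. Leaving out 1 sham or TBI− rat gave 23 to 36 calls, the lowest without sham replicate 1. DESeq2 gave 37, RLE scaling 32, scaling by library total 36, a filter on low counts 34 (of 307 tested), thinning to the smallest library 31, near-identical miRNAs once 28, counts divided by a common factor 33, and the hemolysis index as a covariate 37. The median of all log2 differences was 0.0968 under RLE and -0.0487 under library totals, against 0.0555, and the medians of the let-7 minor strands (-0.12) and HOX-linked miRNAs (-0.10) changed sign under the latter. The deviations of same-numbered sham and TBI− rats from their group means had correlations from -0.129 to 0.147. The labels do not name such rats as pairs, so the main fit had no replicate block. These few correlations cannot exclude a pairing. With the replicate block 29 miRNAs were called on D2, 23 of them among the 35, and 3 between TBI− and TBI+. The miRNAs lost most often were miR-351-3p, miR-3068-5p and miR-24-2-5p. For TBI+ against sham, DESeq2 gave 34 calls and omission of 1 sham rat 11 to 18, 11 without sham rat 1. On D9, the 26 calls became 6 with the replicate block, 3 with the run term (added after seeing the data) and 0 to 21 without 1 sham rat, 17 without sham rat 1 and 0 without sham rat 2 (edgeR, 63 at an unadjusted p under 0.05). The 20 changes between days became 5 after the filter on low counts, 0 with the run term beside the replicate block, and 6 to 24 without 1 sham rat, 6 without sham rat 1 and 9 without sham rat 3. Non-overlapping ranges numbered 27 to 36 without 1 sham rat, 36 without sham rat 4. The cause of these shifts was not tested. Depth limits miR-210-5p, miR-3068-5p, miR-380-3p and miR-382-5p, with means under 10 reads per library.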

Other observations

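The lists that gave no call describe other sources of plasma miRNA. Of the defining liver and muscle miRNAs, miR-122-5p, miR-1-3p and miR-133a-3p were listed at 0 in all 13 libraries. Such a 0 need not mean absence, as miR-122-3p from the same hairpin as miR-122-5p had reads. MiR-122-3p, the minor strand of the liver's leading miRNA, averaged 181 ± 19.1 CPM in sham-operated (SD, n = 4) and 453 ± 451.2 CPM in TBI− rats (SD, n = 9), with a wide spread in the latter (log2 difference 1.52 ± 0.63, edgeR adjusted p = 0.206). MiR-192-5p, another liver miRNA, averaged 34958 ± 8144 CPM and 51475 ± 33355 CPM (log2 difference 0.75 ± 0.47, edgeR adjusted p = 0.419). MiR-182 of the miR-183 cluster, known from sensory neurons and epithelia, averaged 1036 ± 514 CPM and 2046 ± 691 CPM (log2 difference 1.13 ± 0.37, edgeR adjusted p = 0.0631), and with the run as a term on D2 it was 1 of 2 miRNAs, beside miR-205, that differed between runs.

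Red cell miRNAs (4 tested, median log2 difference 0.20), myeloid miRNAs (7, -0.26), muscle miRNAs (6, 0.39), liver miRNAs (3, 0.75), let-7 guide strands (7, -0.04), HOX-linked miRNAs (7, 0.02), miR-183 cluster miRNAs (3, 1.10) and the epithelial miR-200 family (5, -0.39) had no called member. The let-7 minor strands (12, 0.06) had 1, let-7d-3p. MiR-223-3p, abundant in neutrophils and platelets, averaged 2601 ± 605 CPM and 1642 ± 657 CPM (log2 difference -0.52 ± 0.25, edgeR adjusted p = 0.275).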
